A study of Mus musculus with 15 samples.

Results

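The subject of this report is the mouse embryonic stem cell (ESC) line from which the whole coding sequence of Hmga1 was deleted, set against the wild-type (WT) line. ESC are pluripotent cells derived from the early embryo. The comparison takes in 6 of the 15 samples with gene counts, 3 of the deletion line and 3 of WT, each named a, b and c, and was chosen by sample label alone. Of 21662 genes counted, the 13098 with a mean count of at least 10 over these 6 samples were tested. WT was the ESC line 159, of mixed 129Sv-C57Bl/6 background, and the deletion line was derived with Cas9 and guides that included one in the 5′ UTR and one in the 3′ UTR of Hmga1. Both were grown on feeders or gelatine in medium with serum and LIF, the cytokine that maintains self-renewal. Independent cultures were harvested on different days, and strand-specific libraries were made from their total RNA after removal of ribosomal RNA. The exact number of cultures behind the 3 samples of each group is not stated, so samples may share a culture. Each genotype was a single clonal line, so an effect of the deletion and any other difference between these lines cannot be told apart, and the p-values below measure only the spread between samples of the same line.

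Hmga1 encodes a small non-histone protein of chromatin that binds the minor groove of AT-rich DNA with AT hooks, short basic motifs centred on a glycine between arginines. The protein is abundant in embryonic and transformed cells and scarce in most adult tissues, and it is counted among the architectural proteins because it bends DNA and assists other factors in binding it. Hmga2 is the paralog with the same kind of hooks. The AT hooks are what the deletion takes away, and the codons of each are shown for that reason. On the NCBIM37 (mm9) assembly Hmga1 lies on the + strand of chromosome 17 from 27693565 to 27700619, and its longer reading frame of 107 codons runs from 27696514 to 27699433 over 4 coding exons. The stretches below, read from that genome on the + strand, lie in coding exons 1, 2 and 3. The codons of arginine, glycine, arginine and proline at the core of each hook are in capitals and begin at codons 26, 58 and 84.
Hook 1, chr17:27696580-27696609: aagcgaggcCGGGGCAGGCCAcgcaagcag
Hook 2, chr17:27697900-27697929: aagagacctCGGGGCCGACCAaagggaagc
Hook 3, chr17:27698427-27698456: aggaaaccaAGGGGCAGACCCaagaaactg
The 3 cores encode the same residues with different codons.

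Summed counts were between 14832310 and 21708492 per sample. The library of WT b stood apart from the rest. Its TMM scaling factor was 0.752, against 0.986 to 1.12 in the other samples, and 8.78% of its counts fell on its top 10 genes, where the range elsewhere was 4.67% to 5.38%. The chi-square per degree of freedom between samples of the same group was 4.09 to 6.78 without WT b, and 131 and 137 for the pairs of WT b with the other WT samples. Results are therefore given over all 6 samples and again without WT b. Levels are in CPM, counts scaled with TMM to a common library total, given in the order a, b, c, and differences are log2 fold changes, deletion minus WT, with their standard error. Adjusted p-values are from the quasi-likelihood test of edgeR with Benjamini-Hochberg adjustment over the 13098 genes. The 10 markers of ESC were measured in both groups, with summed levels of 4926 to 7846 CPM in WT and 4546 to 4650 CPM in the deletion. Of 10 markers of feeder fibroblasts, Col3a1, Postn, Dcn and S100a4 had no count in any of the 6 samples. The whole list summed to 4.72 to 7.69 CPM in WT and 9.74 to 10.5 CPM in the deletion. Only 3 of the 10 had enough counts to be tested. At an adjusted p under 0.05 none of the 3 passed over 6 samples, and 1 was higher without WT b. Fewer cells of a type and less RNA per cell cannot be told apart in bulk samples.

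The targeted gene was measured first. Hmga1 stood at 357, 310.4 and 355 CPM in WT against 12.3, 10.9 and 12.1 CPM in the deletion. The groups were far apart, with 3.45% of the mean WT level left in the deletion line and a log2 fold change of -4.86 ± 0.13 (adjusted p = 1.06e-05; -4.92 ± 0.07 without WT b, adjusted p = 1.57e-20). Where in the gene the remaining reads lay was not analysed here. The authors name a pseudogene of Hmga1, and reads that fit several places were given a random one of them. Whether the remaining reads came from another copy was not tested. From plots of the reads over the locus, the authors report that the deleted gene was not transcribed.

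Few genes were called over all 6 samples. At an adjusted p under 0.01 and a change of at least 2-fold, 9 genes passed, 3 higher and 6 lower in the deletion line, which is 0.0687% of the genes tested. Without WT b the same rule called 356 genes, 276 higher and 80 lower, or 2.72%, and the 9 were among them. At an adjusted p under 0.05 with no minimum fold, 586 genes were higher (4.47%) and 494 lower (3.77%) over 6 samples, against 2709 higher (20.7%) and 2881 lower (22.0%) without WT b. All 586 and all 494 were also called without WT b in the same direction. The shares of all genes at this threshold are the base for every count of list members below. These shares moved with level. Without WT b 55.6% of the 2620 genes with the highest mean CPM were lower and 10.6% higher. Of the 2620 with the lowest mean CPM, 3.63% were lower and 18.1% higher. Lists of highly expressed genes are thus also to be read beside the shares at their level. Summed counts in place of TMM gave 544 higher and 120 lower over 6 samples and 4981 and 1437 without WT b, and the median over all genes went from 0.04 to 0.32 and from 0.03 to 0.19 with them. List values with summed counts below stand beside these. A list median that turns above 0 with summed counts can thus still lie below that of all genes. Leaving out any 1 deletion sample left Hmga1 as the only call, and leaving out WT a or WT c left Hmga1, Uty and Ddx3y.

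**Figure D1:**
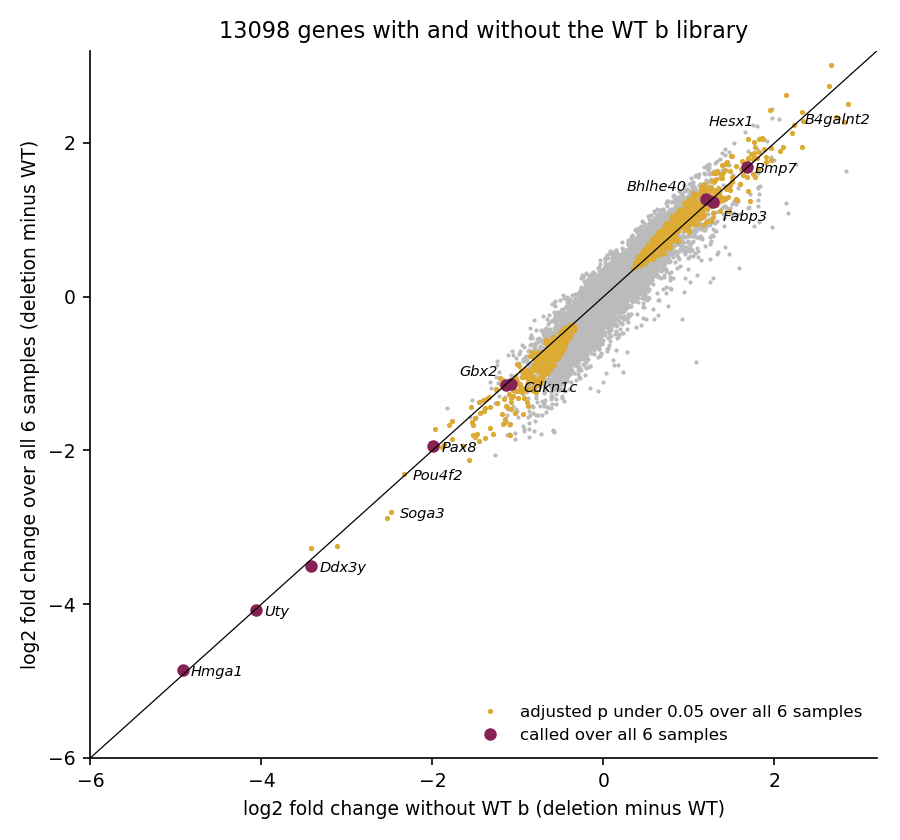
Log2 fold change of each of the 13098 genes over all 6 samples (vertical axis) against the same without WT b (horizontal axis), with the line of equal values. Yellow points passed an adjusted p of 0.05 over 6 samples and purple points are the 9 called genes, which lie near the line from -4.86 for Hmga1 to 1.69 for Bmp7.

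Of the 3 genes that rose, Bmp7 changed most. Here and below, genes were mostly named by their p, which favours tight groups without overlap, so these describe the values only. It encodes a secreted ligand of the Bmp family, which signals through Smad proteins. Bmp7 had 3.46, 3.37 and 3.47 CPM in WT against 11.4, 11.3 and 10.6 CPM in the deletion. Each group was tight and the groups did not overlap, and the difference was 1.69 ± 0.13 (adjusted p = 0.00748; 1.67 ± 0.15 without WT b). Bhlhe40, a repressor of the basic helix-loop-helix family that responds to hypoxia and the circadian clock, had 22.3, 18.7 and 21.4 CPM in WT against 49.7, 50.6 and 50.2 CPM in the deletion. The deletion samples lay within 1 CPM of each other, far above WT, and the difference was 1.27 ± 0.10 (adjusted p = 0.00876; 1.20 ± 0.07 without WT b). Fabp3, a carrier of fatty acids in the cytoplasm, had 19.22, 21.0 and 19.13 CPM in WT against 43.2, 51.0 and 44.7 CPM in the deletion. All 3 deletion samples were above all 3 WT samples, and the difference was 1.23 ± 0.11 (adjusted p = 0.00913; 1.28 ± 0.09 without WT b).

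Beside Hmga1, 5 genes fell. Gbx2, a homeobox factor of naive pluripotency and of the early midbrain and hindbrain, had 125, 125 and 128 CPM in WT against 51.7, 60.8 and 58.2 CPM in the deletion. The WT samples lay within 3 CPM of each other, the deletion samples were all far below them, and the difference was -1.15 ± 0.10 (adjusted p = 0.00913; -1.14 ± 0.07 without WT b). Cdkn1c, an imprinted gene that encodes the Cdk inhibitor p57, had 45.0, 47.4 and 41.3 CPM in WT against 20.9, 20.0 and 20.0 CPM in the deletion. The groups did not overlap, and the difference was -1.13 ± 0.10 (adjusted p = 0.00913; -1.09 ± 0.08 without WT b). Pax8, a paired-box factor of thyroid and kidney development, had 8.83, 8.03 and 9.63 CPM in WT against 2.12, 2.59 and 2.18 CPM in the deletion. All deletion samples were below all WT samples, at -1.94 ± 0.17 (adjusted p = 0.00913; -1.99 ± 0.17 without WT b).

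The other two are on chromosome Y. Uty, the Y-linked relative of the histone demethylase gene Kdm6a, had 25.0, 29.4 and 34.7 CPM in WT against 1.21, 2.25 and 1.73 CPM in the deletion. Ddx3y, an RNA helicase gene, had 11.8, 13.4 and 10.9 CPM in WT against 1.03, 1.08 and 1.05 CPM in the deletion. The deletion samples of both genes were at or below 2.25 CPM, with differences of -4.07 ± 0.23 (adjusted p = 0.00114) and -3.51 ± 0.17 (adjusted p = 0.000477). All 4 Y-linked genes tested were lower at an adjusted p under 0.05. Eif2s3y, a subunit gene of a translation initiation factor, had 62.8, 112 and 67.1 CPM in WT against 30.0, 28.5 and 30.7 CPM in the deletion. It kept more of its WT level than Uty or Ddx3y did, at -1.44 ± 0.22 (adjusted p = 0.0227). Uba1y, the Y copy of a ubiquitin-activating enzyme gene, had a difference of -1.88 ± 0.39 (adjusted p = 0.0371). Of the 8 X-linked relatives of Y genes none was called over 6 samples (6 at an unadjusted p under 0.05, 6 by DESeq2, 0 by limma-trend), and 6 were lower without WT b, from -0.35 for Kdm5c to -0.24 for Eif2s3x (3 lower and 1 higher with summed counts). Whether chromosome Y was lost from part of the deletion line was not tested.

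**Figure D2:**
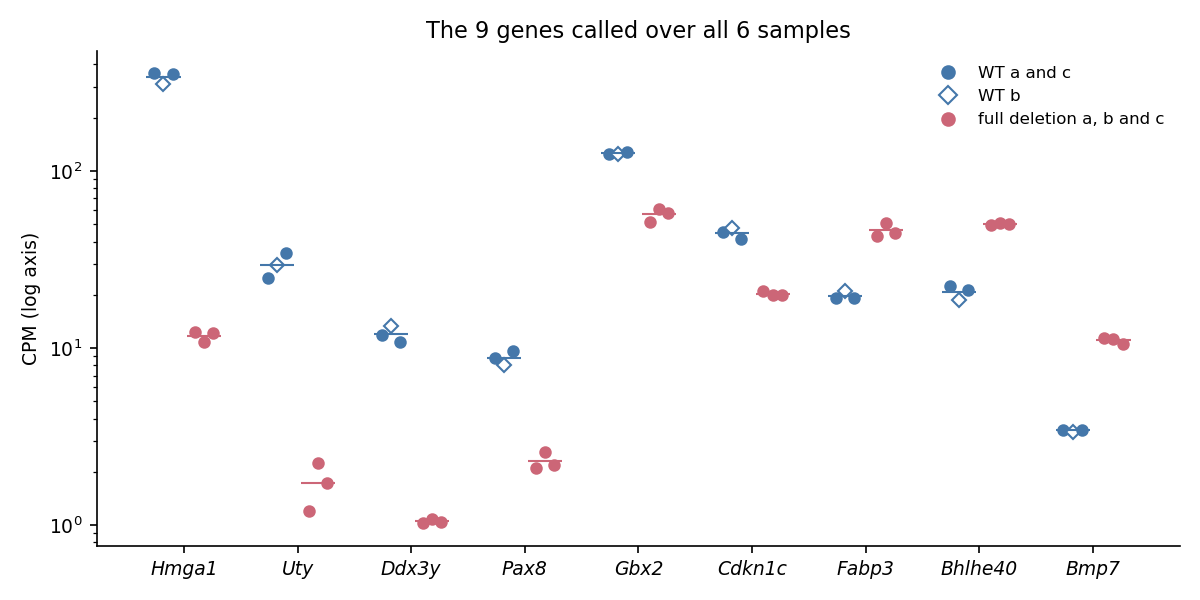
CPM on a log axis of the 9 genes called over all 6 samples, with 1 point per sample and the group mean as a line, WT a and c in blue, WT b as an open diamond and the deletion in red. In none of the 9 genes do the groups overlap, and WT b lies near the other WT samples, which the call over these same 6 samples favours.

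Beyond the 9, genes were ranked by difference at an adjusted p under 0.05, at least 2-fold, with a mean count of at least 50. Only genes without overlap between the groups were kept, so the lack of overlap in the genes named here was set by the choice. The largest differences were those of Soga3 and Pou4f2 among falls and of B4galnt2 and Hesx1 among rises. Soga3 had 16.5, 28.3 and 15.9 CPM in WT against 2.90, 3.46 and 2.32 CPM in the deletion. Each sample of the deletion was below WT, at -2.80 ± 0.28 (adjusted p = 0.0132). Pou4f2, a POU factor of sensory neurons, had -2.31 ± 0.25 (adjusted p = 0.0132), and Pou2f3, a POU factor of tuft cells, had -1.93 ± 0.23 (adjusted p = 0.0175). Hesx1, a homeobox repressor of the anterior neural plate and pituitary, had 2.47, 1.65 and 3.03 CPM in WT against 9.62, 10.02 and 10.5 CPM in the deletion. It was above WT in all 3 deletion samples, at 2.05 ± 0.22 (adjusted p = 0.0132). B4galnt2, a glycosyltransferase gene, had 2.13 ± 0.30 (adjusted p = 0.0210).

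The other rises by this rule, beside Bmp7, were in Lrrc3, Lrrc15, Grina, Mapk12, Uap1l1, Lrrc75a and Greb1l, from 1.66 to 1.95. The other falls were in Tgtp2, Nefh and Gm8300, from -1.83 to -1.79. Nefh, the heavy neurofilament subunit, was at 222, 623 and 208 CPM in WT against 94.5, 107 and 99.8 CPM in the deletion. WT b stood far above WT a and c, so that the difference of -1.80 ± 0.41 over 6 samples was -1.09 ± 0.06 without WT b. Tgtp2 and Gm8300 belong to families of near-identical copies among which reads may have been split. Without WT b, at an adjusted p under 0.01, the same kind of rule also named the falls of Tfpi, A930004D18Rik and Fcgr2b and the rises of Ddit3, Ddit4, Dnm1 and Cpt1b. Tfpi, an inhibitor of blood coagulation, had 76.1, 130.1 and 76.0 CPM in WT against 28.0, 28.5 and 25.5 CPM in the deletion. The difference without WT b was -1.48 ± 0.07 (adjusted p = 5.95e-11). Among the rises, Cpt1b, which moves fatty acids into mitochondria, had 1.60 ± 0.25 (adjusted p = 5.56e-05), and Dnm1, a dynamin gene of endocytosis, had 1.77 ± 0.22 (adjusted p = 3.43e-06).

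Among the other genes of high mobility group proteins, none of 12 passed an adjusted p of 0.05 over 6 samples (6 at an unadjusted p under 0.05, 5 by DESeq2, 0 by limma-trend). Hmga2 was measured at 17.7, 13.2 and 16.1 CPM in WT against 23.2, 21.0 and 20.6 CPM in the deletion. All 3 deletion samples were above all 3 WT samples, at 0.46 ± 0.14 (adjusted p = 0.0685) over 6 samples and at 0.35 ± 0.10 (adjusted p = 0.00733) without WT b. Per kilobase of exon, the mean level of Hmga2 in the deletion line was 5.05 CPM, against 166 CPM for Hmga1 in WT. Without WT b, 2 genes of the family were higher and 5, Hmga1 included, were lower (4 and 4 with summed counts). Hmgb1 and Hmgb2, box proteins that bend DNA, had differences of -0.33 ± 0.06 and -0.43 ± 0.05 (adjusted p = 0.000291 and 1.37e-06), and Hmgn1, a nucleosome-binding protein, had -0.51 ± 0.06 (adjusted p = 2.53e-06). For Hmgb2 the level in WT b alone was 1792 CPM, against 714 and 702 CPM in WT a and c and 514 to 540.1 CPM in the deletion. Within 250 kb on either side of Hmga1 the annotation places 7 other genes of the table, of which 6 were tested. None passed an adjusted p of 0.05 over 6 samples (4 at an unadjusted p under 0.05, 3 by DESeq2, 0 by limma-trend), and 3 were higher and 1 was lower without WT b. The lower gene was Nudt3, a phosphatase gene 15708 bases beyond the end of Hmga1, with -0.50 ± 0.06 (adjusted p = 1.70e-06). Grm4, a glutamate receptor gene on the other side, had 1.21 ± 0.42 (adjusted p = 0.0250).

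The pluripotency network of ESC rests on Pou5f1, Sox2 and Nanog, around which genes of the naive state, that of the preimplantation epiblast, are held on by LIF. Genes of the primed state come up as cells approach gastrulation. Pou5f1 had 745, 823 and 709.5 CPM in WT against 628, 660.2 and 638 CPM in the deletion. The whole deletion group was below WT, at -0.24 ± 0.12 (adjusted p = 0.169, and a log2 fold change of 0.05 with summed counts) over 6 samples and -0.18 ± 0.05 (adjusted p = 0.00679) without WT b. Sox2 had -0.29 ± 0.20 (adjusted p = 0.304, and a log2 fold change of 0.03 with summed counts) and -0.03 ± 0.05 without WT b (adjusted p = 0.615, and a log2 fold change of 0.13 with summed counts), and Nanog had 0.45 ± 0.28 (adjusted p = 0.265) and 0.17 ± 0.08 (adjusted p = 0.118). Sox2 and Nanog thus passed in neither fit, and WT b was the highest WT sample for Sox2 and the lowest for Nanog. Of 15 genes of the core network, 3 were lower and none was higher over 6 samples, with a median of -0.24. With summed counts the median turned to 0.05, beside 0.32 for all genes. Without WT b 8 were lower and 3 higher (5 and 5 with summed counts), with a median of -0.18. The 3 were Foxd3, a forkhead factor of the epiblast, Zfp281, a zinc finger factor of the exit from naive pluripotency, and Lin28b, an inhibitor of let-7 maturation. Foxd3 had 43.3, 31.1 and 41.7 CPM in WT against 21.9, 19.05 and 22.4 CPM in the deletion. Its groups did not overlap, and the difference was -0.88 ± 0.15 (adjusted p = 0.0284; -1.01 ± 0.08 without WT b).

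Of 21 genes of naive pluripotency, 6 were lower and 1 was higher over 6 samples, with a median of -0.25 that turned to 0.05 with summed counts. Without WT b 9 (42.9%) were lower and 6 (28.6%) higher (7 lower and 10 higher with summed counts), with a median of -0.09 that turned to 0.07. Of all genes, 22.0% were lower and 20.7% higher in that fit. With summed counts the median of all genes was 0.32 over 6 samples and 0.19 without WT b. Beside Gbx2, the 6 were Dppa2, Spic, Fgf4, Nr5a2 and Nr0b1. Dppa2, which with Dppa4 keeps early embryonic promoters accessible, had 195, 203 and 191 CPM in WT against 108, 127 and 110.3 CPM in the deletion. Fgf4, the ligand by which ESC drive their own Erk signal, had 487, 538 and 546 CPM in WT against 294, 349 and 325 CPM in the deletion. In both genes all deletion samples were below all WT samples, with differences of -0.77 ± 0.11 (adjusted p = 0.0202) and -0.70 ± 0.12 (adjusted p = 0.0279). Spic, an Ets-family factor, had -1.21 ± 0.17 (adjusted p = 0.0204), and Nr5a2, a nuclear receptor that regulates Pou5f1, had -0.45 ± 0.10 (adjusted p = 0.0398). The gene that rose was Dppa3, a maternal factor that protects methylation, at 0.96 ± 0.17 (adjusted p = 0.0293). Zfp42, also called Rex1, had 1227, 2847 and 1187 CPM in WT against 903, 935 and 928 CPM in the deletion. WT b was far above every other sample, and the difference of -0.93 ± 0.34 (adjusted p = 0.0967) over 6 samples was -0.39 ± 0.05 (adjusted p = 3.05e-06) without it.

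Of 18 tested genes of the primed epiblast, 3 were higher and 3 lower over 6 samples and 6 and 6 without WT b (7 higher and 3 lower with summed counts). The 6 and 6 are 33.3% each, against 20.7% of all genes higher and 22.0% lower. Otx2, a homeobox factor of the primed state and the anterior embryo, had 15.8, 7.35 and 14.7 CPM in WT against 31.9, 33.0 and 31.2 CPM in the deletion. The deletion samples were all above WT, at 1.34 ± 0.26 (adjusted p = 0.0334; 1.07 ± 0.09 without WT b). Dnmt3b, a de novo DNA methyltransferase, had 279.7, 315 and 266 CPM in WT against 182, 185 and 171 CPM in the deletion. It was below WT in all 3 deletion samples, at -0.68 ± 0.11 (adjusted p = 0.0250; -0.61 ± 0.05 without WT b). The other rises were in Car14 and Lefty1, and Grhl2 was also among the falls. None of 7 mesendoderm genes tested passed over 6 samples (0 at an unadjusted p under 0.05, 0 by DESeq2, 0 by limma-trend), nor did any of 9 of neuroectoderm (3 at an unadjusted p under 0.05, 3 by DESeq2, 0 by limma-trend). On the other hand, 1 of 16 of primitive endoderm and 1 of 14 of trophoblast did. These were Lamb1, a laminin gene, at -0.47 ± 0.11 (adjusted p = 0.0433), and Peg10, at -0.76 ± 0.12 (adjusted p = 0.0216). Without WT b, 3 of the neuroectoderm genes were lower (2 lower and 2 higher with summed counts), and 3 of primitive endoderm were higher and 5 lower (5 higher and 3 lower with summed counts). The 5 primitive endoderm markers Gata4, Gata6, Sox17, Sox7 and Dab2 summed to 6.56 to 8.49 CPM in WT and 11.2 to 12.2 CPM in the deletion, and the neural markers Pax6, Sox1, Nes and Fabp7 to 43.3 to 71.2 and 44.2 to 46.2 CPM.

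**Figure D3:**
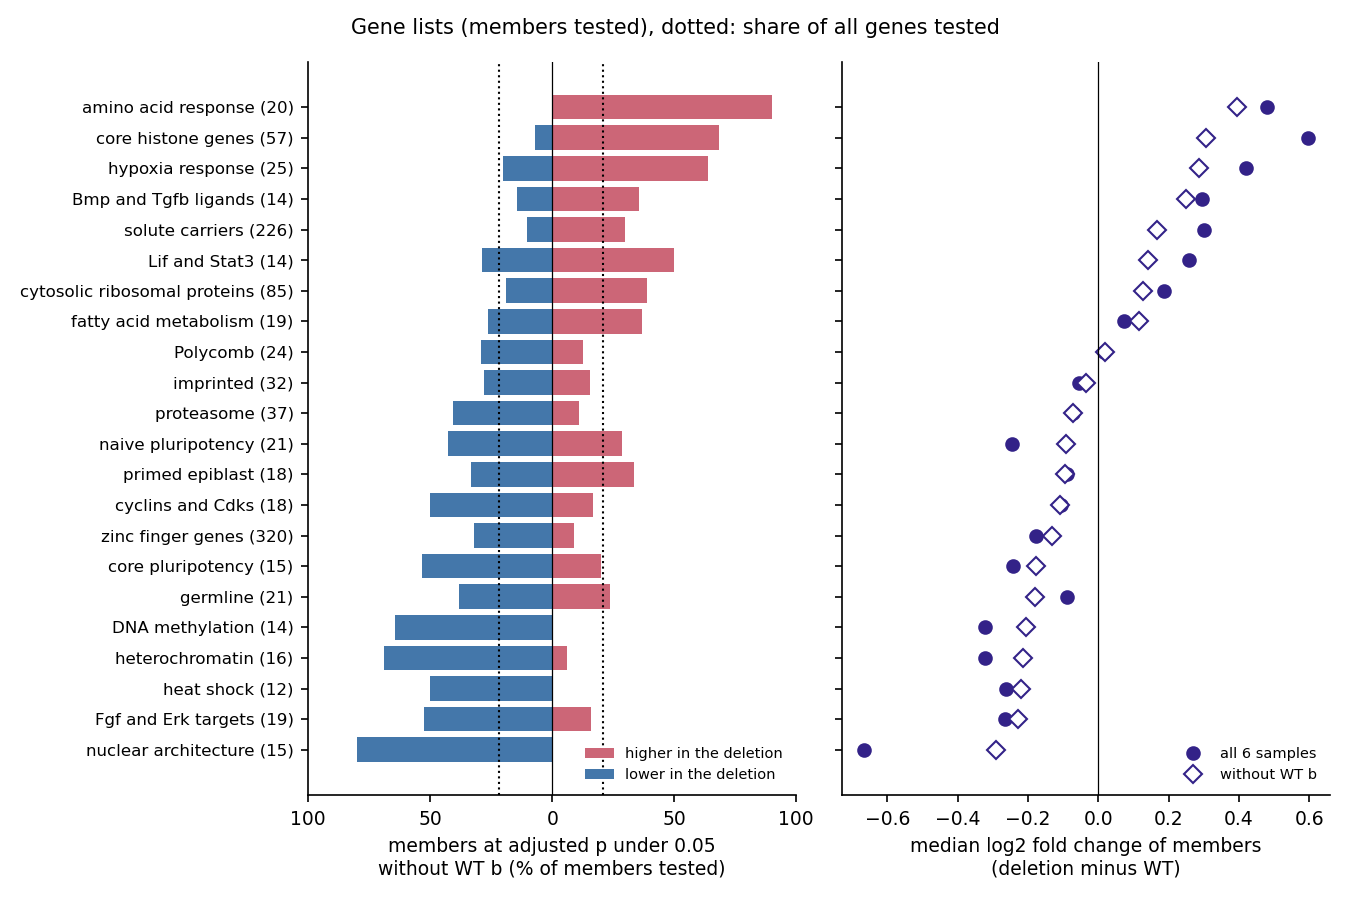
For 22 gene lists, with the number of members tested in parentheses, the left panel gives the percentage of members higher (red, to the right) and lower (blue, to the left) without WT b at an adjusted p under 0.05, with the shares of all genes, 20.7% and 22.0%, as dotted lines. The right panel gives the median log2 fold change over all 6 samples (filled) and without WT b (open), from 0.48 and 0.39 for the amino acid response to -0.67 and -0.29 for nuclear architecture. With summed counts the medians of naive pluripotency, zinc finger, imprinted, proteasome, primed epiblast and cyclin genes turn above 0, and those of core pluripotency, germline, heat shock and Fgf and Erk genes do so over 6 samples. The median of all genes is then 0.32 over 6 samples and 0.19 without WT b. The median of Polycomb genes turns below 0 over 6 samples with DESeq2 size factors. Among the 2620 genes with the highest mean CPM, 10.6% are higher and 55.6% lower without WT b.

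Bmp, Nodal and Activin ligands signal through receptor kinases to Smad proteins, which switch on target genes and their own inhibitors. Of 14 ligand genes tested, 2 were higher and 2 lower over 6 samples. Without WT b 5 (35.7%) were higher and 2 (14.3%) lower, against 20.7% and 22.0% of all genes. While Bmp7 rose, Bmp4, the ligand added to ESC cultures to block neural differentiation, had 39.2, 41.9 and 29.4 CPM in WT against 13.1, 14.9 and 12.9 CPM in the deletion. All deletion samples were below all WT samples, at -1.43 ± 0.16 (adjusted p = 0.0137; -1.33 ± 0.11 without WT b). Inhbb, a subunit of activin B, had 191, 293 and 221 CPM in WT against 117, 129 and 124 CPM in the deletion. The groups did not overlap, although WT b was above the other WT samples, and the difference was -0.93 ± 0.16 (adjusted p = 0.0293; -0.74 ± 0.06 without WT b). Lefty1, an antagonist of Nodal, had 15.6, 8.39 and 15.3 CPM in WT against 26.4, 29.6 and 25.5 CPM in the deletion. WT b was the lowest sample, and the difference of 1.05 ± 0.23 (adjusted p = 0.0400) was 0.82 ± 0.10 without it. Per kilobase of exon, mean levels in the deletion line were 4.78 CPM for Bmp7 and 6.83 CPM for Bmp4, against 1.48 and 18.5 CPM in WT.

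None of 13 receptor genes tested passed over 6 samples (2 at an unadjusted p under 0.05, 1 by DESeq2, 0 by limma-trend). Of 8 Smad genes, Smad6, an inhibitory Smad, rose, with 11.8, 9.31 and 9.78 CPM in WT against 16.0, 15.4 and 17.3 CPM in the deletion. All 3 deletion samples were above WT, at 0.66 ± 0.13 (adjusted p = 0.0363; 0.59 ± 0.11 without WT b). Without WT b Smad3 was also higher, at 0.32 ± 0.09 (adjusted p = 0.00766), and Smad2 and Smad5 were lower, at -0.29 ± 0.07 and -0.36 ± 0.06 (adjusted p = 0.00250 and 0.000139). With summed counts 4 Smad genes were higher and 1 lower. Smad6 was the only gene to pass over 6 samples among 11 inhibitors and among 10 Bmp targets, of which it is a member in both. Id1, a classical target, had -0.34 ± 0.11 without WT b (adjusted p = 0.0143).

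Of 19 genes that report Fgf and Erk signalling, 3 were lower and 2 higher over 6 samples, with a median of -0.27 that turned to 0.02 with summed counts, and 10 were lower and 3 higher without WT b (7 lower and 6 higher with summed counts). The falls were in Spry4 and Spred1, feedback inhibitors of the pathway, and in Etv1, an Ets factor. Spry4 had 207, 204 and 212 CPM in WT against 140.2, 141 and 143 CPM in the deletion. The groups were each within 9 CPM and did not overlap, with a difference of -0.55 ± 0.09 (adjusted p = 0.0250; -0.57 ± 0.05 without WT b). Dusp4, a phosphatase of nuclear Erk, went the other way, with 18.3, 28.3 and 18.9 CPM in WT against 42.2, 42.5 and 43.5 CPM in the deletion. WT b was the highest WT sample, and the difference of 0.97 ± 0.18 (adjusted p = 0.0302) was 1.20 ± 0.08 without it. The other rise was in Ier3, at 1.21 ± 0.29 (adjusted p = 0.0494). Among 13 Wnt target genes only Myc passed over 6 samples. Myc, a growth factor-responsive regulator of proliferation, had 31.9, 32.5 and 30.3 CPM in WT against 19.8, 17.97 and 17.9 CPM in the deletion. It was lower in all 3 deletion samples, at -0.77 ± 0.10 (adjusted p = 0.0188; -0.75 ± 0.09 without WT b). Without WT b 5 of the 13 were higher and 4, Axin2 and Ccnd1 among them, lower. Of 14 genes of the Lif and Stat3 pathway, Pim1, a kinase gene that Stat3 activates, was alone in passing over 6 samples, with 78.5, 48.7 and 73.2 CPM in WT against 122, 118 and 126 CPM in the deletion. The difference was 0.87 ± 0.18 (adjusted p = 0.0361; 0.69 ± 0.06 without WT b). Without WT b 7 of the 14 were higher and 4 lower, the lower ones being the receptor genes Lifr and Il6st, Stat3 itself and Klf4. With summed counts 9 were higher and none of these 4 was lower. Of 14 Notch pathway genes, Jag1, a ligand, and Notch4, a receptor, were lower, at -0.53 ± 0.12 and -0.48 ± 0.11 (adjusted p = 0.0419 and 0.0435), and Nrarp, a feedback inhibitor, was higher, at 1.28 ± 0.29 (adjusted p = 0.0419). None of 15 retinoic acid genes passed over 6 samples (3 at an unadjusted p under 0.05, 1 by DESeq2, 0 by limma-trend), and none of 8 Hedgehog genes did (1 at an unadjusted p under 0.05, 0 by DESeq2, 0 by limma-trend). Without WT b 3 (20%) of the retinoic acid genes were higher and 1 (6.67%) lower, and 1 (12.5%) Hedgehog gene was higher. Of all genes, 20.7% were higher and 22.0% lower in that fit, so neither list stood above these shares.

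Genes of the amino acid response, which Atf4 switches on when amino acids run short or other stresses phosphorylate eIF2, had more higher than lower members. Over 6 samples 5 of 20 were higher and none was lower, with a median of 0.48, against 0.04 for all genes. Without WT b 18 of 20 (90%) were higher and none lower, with a median of 0.39, against 20.7% and 22.0% of all genes. Atf4 itself had 247, 208 and 227 CPM in WT against 318, 311 and 317 CPM in the deletion. Every deletion sample was above WT, at 0.47 ± 0.11 (adjusted p = 0.0433; 0.41 ± 0.05 without WT b). Ddit3, a factor of the same response also known as Chop, had 9.40, 19.12 and 8.29 CPM in WT against 27.5, 31.5 and 27.8 CPM in the deletion. WT b was higher than WT a and c and still below the deletion samples, so the difference of 1.25 ± 0.30 (adjusted p = 0.0478) was 1.71 ± 0.11 without it. Chac1, a glutathione-degrading enzyme that Atf4 induces, had 1.32 ± 0.25 (adjusted p = 0.0334), Cebpb had 1.40 ± 0.22 (adjusted p = 0.0248) and Vldlr had 0.73 ± 0.13 (adjusted p = 0.0309). Among the enzymes of serine synthesis Psat1 had 231, 139 and 246 CPM in WT against 315, 309.5 and 299 CPM in the deletion. The deletion samples were above all WT samples, and the difference was 0.37 ± 0.05 (adjusted p = 2.36e-05) without WT b. The summed level of the 20 genes was 1822, 1499 and 1845 CPM in WT against 2308, 2284 and 2248 CPM in the deletion. In the unfolded protein response, which shares Ddit3 but also covers the chaperones of the endoplasmic reticulum, 1 of 16 genes was higher over 6 samples. This was Herpud1, at 1.13 ± 0.23 (adjusted p = 0.0356; 0.90 ± 0.09 without WT b), while the chaperone gene Hspa5 had -0.24 ± 0.05 (adjusted p = 0.000653) without WT b.

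Of 25 genes of the response to hypoxia, 8 were higher and 1 was lower over 6 samples, with a median of 0.42. Without WT b 16 (64%) were higher and 5 (20%) lower, with a median of 0.29, against 20.7% and 22.0% of all genes. Beside Bhlhe40, Bnip3, a mitochondrial protein that starts mitophagy, had 8.21, 9.07 and 7.56 CPM in WT against 17.7, 18.8 and 17.99 CPM in the deletion. No overlap was seen between groups, and the difference was 1.14 ± 0.12 (adjusted p = 0.0132; 1.21 ± 0.11 without WT b). Egln1, the prolyl hydroxylase that marks Hif factors for degradation, had 0.67 ± 0.10 (adjusted p = 0.0216). P4ha1 and P4ha2, the collagen prolyl hydroxylase subunits, had 0.93 ± 0.16 and 0.90 ± 0.15 (adjusted p = 0.0285 and 0.0279). Slc2a3, a high-affinity glucose transporter, had 501, 331 and 488 CPM in WT against 776, 747 and 753 CPM in the deletion. All deletion samples were above all WT samples, at 0.79 ± 0.17 (adjusted p = 0.0413; 0.62 ± 0.05 without WT b). Ddit4, an inhibitor of mTor, had 1.37 ± 0.26 (adjusted p = 0.0322; 1.69 ± 0.17 without WT b). The gene that fell was Epas1, which encodes Hif2a, with 36.7, 48.2 and 35.3 CPM in WT against 23.2, 20.4 and 20.4 CPM in the deletion. It was below WT in every deletion sample, at -0.91 ± 0.15 (adjusted p = 0.0250; -0.76 ± 0.08 without WT b). Of 19 genes of fatty acid metabolism, 4 were higher and none lower over 6 samples, and 7 were higher and 5 lower without WT b. The 4 were Fabp3, Cpt1a and Cpt2 of the carnitine shuttle, at 0.50 ± 0.10 and 0.57 ± 0.13 (adjusted p = 0.0370 and 0.0409), and Ppard, a nuclear receptor that fatty acids activate, at 0.57 ± 0.12 (adjusted p = 0.0383). None of 25 genes of cholesterol synthesis passed over 6 samples (10 at an unadjusted p under 0.05, 5 by DESeq2, 1 by limma-trend). Without WT b 4 (16%) were higher and 6 (24%) lower (11 higher and 2 lower with summed counts), near the shares of all genes. Among 226 solute carriers, the transporters of the plasma and organelle membranes, 18 were higher and 5 lower over 6 samples, with a median of 0.30, and 67 (29.6%) were higher and 23 (10.2%) lower without WT b. Slc1a4, a transporter of neutral amino acids, had 1.04 ± 0.15 (adjusted p = 0.0216).

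In the cell cycle machinery, 2 of 18 cyclin, Cdk and E2f genes were lower and none was higher over 6 samples, and 9 were lower and 3 higher without WT b (5 and 5 with summed counts). Ccne2, a cyclin of the start of S phase, had 34.9, 42.5 and 36.3 CPM in WT against 23.2, 21.5 and 21.7 CPM in the deletion. The groups did not overlap, and the difference was -0.78 ± 0.11 (adjusted p = 0.0216; -0.69 ± 0.08 without WT b). Ccnd2, a cyclin of G1, had -0.41 ± 0.10 (adjusted p = 0.0480). Of 6 Cdk inhibitor genes Cdkn1c alone passed over 6 samples. Cdkn1a, the p53 target that encodes p21, had 8.30, 4.04 and 7.23 CPM in WT against 13.4, 12.6 and 12.6 CPM in the deletion. All deletion samples were above WT, at 0.97 ± 0.24 (adjusted p = 0.0515) over 6 samples and 0.73 ± 0.12 (adjusted p = 0.000107) without WT b. Among 23 p53 targets only Perp, a desmosomal protein gene, passed over 6 samples, at -0.81 ± 0.18 (adjusted p = 0.0419). Without WT b 8 (34.8%) were higher and 5 (21.7%) lower, against 20.7% and 22.0% of all genes. Trp53 itself had 0.47 ± 0.07 (adjusted p = 1.50e-05) without WT b. Of 12 heat shock genes, 2 were lower over 6 samples, with a median of -0.26 that turned to 0.03 with summed counts, and 6 were lower and none higher without WT b (6 lower and 3 higher with summed counts). Hspe1, the mitochondrial co-chaperonin, had 694, 1329.5 and 858 CPM in WT against 432, 511 and 452 CPM in the deletion. WT b was the highest sample, and the difference of -1.05 ± 0.24 (adjusted p = 0.0433) was -0.74 ± 0.07 without it. Hsph1, a partner of Hsp70, had -0.52 ± 0.11 (adjusted p = 0.0388).

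Counts of lower and higher chromatin genes without WT b stand beside 22.0% and 20.7% of all genes, and they depend on the scaling. Among the 2620 genes with the highest mean level, 87.5 CPM or more, 55.6% were lower and 10.6% higher in that fit. Whether these lists differ from other genes of the same level was not tested. Of 24 Polycomb genes, which set and bind H3K27me3 and H2A ubiquitin, 2 were lower and 1 was higher over 6 samples, and 7 lower and 3 higher without WT b (4 lower and 13 higher with summed counts). Eed, a core subunit of PRC2, had 507, 948 and 551 CPM in WT against 325, 350.0 and 331 CPM in the deletion. WT b was well above the other WT samples, and the difference of -0.997 ± 0.24 (adjusted p = 0.0474) was -0.66 ± 0.05 (adjusted p = 4.12e-08) without it. Rnf2, the ubiquitin ligase of PRC1, had -0.79 ± 0.17 (adjusted p = 0.0404; -0.58 ± 0.06 without WT b). Phf19, an accessory subunit of PRC2, had 3.94, 3.98 and 3.66 CPM in WT against 8.47, 8.03 and 8.81 CPM in the deletion. The deletion samples were all above WT, at 1.13 ± 0.14 (adjusted p = 0.0175). Of 14 genes of DNA methylation, Dnmt3b and Tet2 were lower over 6 samples, and 9 were lower and none higher without WT b, with a median of -0.21. With summed counts 4 were lower and 1 higher, with a median of -0.04. Tet2, a dioxygenase that oxidizes methylcytosine, had 964, 1584 and 1000.1 CPM in WT against 598, 573 and 597 CPM in the deletion. The difference was -1.005 ± 0.21 (adjusted p = 0.0366) over 6 samples and -0.74 ± 0.05 without WT b. Of 16 heterochromatin genes, Hells, a remodeller, and Trim28, the corepressor of Krab zinc finger proteins, were lower over 6 samples, at -0.61 ± 0.12 and -0.60 ± 0.14 (adjusted p = 0.0341 and 0.0468), and 11 were lower and 1 higher without WT b (5 lower and 2 higher with summed counts). None of 15 genes of nuclear architecture passed over 6 samples (10 at an unadjusted p under 0.05, 8 by DESeq2, 0 by limma-trend), where their median was -0.67, and 12 (80%) were lower and none higher without WT b, with a median of -0.29. With summed counts 7 were lower and 1 higher, with a median of -0.13. Ctcf, which with cohesin sets loops, had 283, 359 and 292 CPM in WT against 221, 238 and 244 CPM in the deletion. All deletion samples were below WT, at -0.29 ± 0.05 (adjusted p = 0.000307) without WT b. Smc3, a cohesin subunit, had -0.45 ± 0.05 (adjusted p = 6.54e-07) without WT b, where the level in WT b was 1316 CPM against 658 and 645 CPM in WT a and c.

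Linker histones, which like Hmga proteins bind outside the nucleosome core, were 1 higher and 1 lower of 8 over 6 samples. Without WT b 6 (75%) were higher and 2 (25%) lower, with TMM as with summed counts. Of all genes, 20.7% were higher and 22.0% lower without WT b. H1f0, the replacement H1 that rises as cells leave the cycle, had 44.0, 44.0 and 40.5 CPM in WT against 68.8, 62.7 and 69.2 CPM in the deletion. No overlap was seen between groups, and the difference was 0.64 ± 0.10 (adjusted p = 0.0216; 0.66 ± 0.07 without WT b). Hist1h1t, the testis H1, had 24.4, 49.9 and 28.3 CPM in WT against 8.23, 12.9 and 10.1 CPM in the deletion. It was below WT in all 3 deletion samples, at -1.71 ± 0.30 (adjusted p = 0.0286; -1.32 ± 0.13 without WT b). Of 57 core histone genes 1, Hist2h2bb, passed over 6 samples, at -1.05 ± 0.21 (adjusted p = 0.0342). Without WT b 39 (68.4%) were higher and 4 (7.02%) lower (49 and 2 with summed counts), with a median of 0.31. Their summed level was 15568, 13845 and 17034 CPM in WT against 14344, 14629 and 14678 CPM in the deletion, so that the total was lower in the deletion than in WT a and c. The same genes had a median of -1.03 in WT b against WT a and c, and near-identical copies may share their reads. With WT b included their median log2 fold change was 0.60, against the 0.31 without it. Why WT b differed in these genes was not tested.

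Many germline genes are kept silent outside the germ cells by DNA methylation and Polycomb. Of 21 germline genes tested, 6 were lower and 1 was higher over 6 samples, with a median of -0.09 that turned to 0.17 with summed counts. Without WT b 8 (38.1%) were lower and 5 (23.8%) higher (7 and 6 with summed counts), against 22.0% and 20.7% of all genes. Tex19.1, a germline gene that limits retrotransposons, had 61.5, 68.1 and 58.5 CPM in WT against 37.0, 38.4 and 36.8 CPM in the deletion. The groups did not overlap, and the difference was -0.75 ± 0.10 (adjusted p = 0.0188; -0.68 ± 0.07 without WT b). Sycp1, a protein of the synaptonemal complex, had -1.52 ± 0.27 (adjusted p = 0.0293), and Ddx4, the helicase also called Vasa, had -0.93 ± 0.21 (adjusted p = 0.0413). The rise was in Mael, a factor of the piRNA pathway, at 1.05 ± 0.17 (adjusted p = 0.0248). Of 10 genes of 2-cell-like cells, a rare state of ESC cultures marked by Zscan4, 2 were lower over 6 samples and 3 without WT b. Zscan4f had 5.03, 5.33 and 5.01 CPM in WT against 2.54, 2.50 and 2.91 CPM in the deletion. All 3 deletion samples were below all WT samples, at -0.95 ± 0.16 (adjusted p = 0.0279), and the copies of Zscan4 are near-identical and may share reads. Of 32 imprinted genes, 5 were lower and 1 was higher over 6 samples, with a median of -0.06 that turned to 0.23 with summed counts. Without WT b 9 (28.1%) were lower and 5 (15.6%) higher (6 lower and 12 higher with summed counts). Beside Cdkn1c, the falls were in Peg10, Ube3a, Mcts2 and Peg13. Ube3a, the ubiquitin ligase gene of Angelman syndrome, had 229.6, 287 and 246 CPM in WT against 149.9, 159 and 145 CPM in the deletion. The difference was -0.75 ± 0.12 (adjusted p = 0.0241; -0.65 ± 0.06 without WT b). Peg13, a non-coding RNA, had 26, 16 and 34 counts in WT against 0, 3 and 5 counts in the deletion. The difference of -3.27 ± 0.59 (adjusted p = 0.0301) rests on these few reads. The rise was in Impact, an inhibitor of Gcn2, at 0.53 ± 0.13 (adjusted p = 0.0496).

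Zinc finger genes, most of which encode DNA-binding repressors, formed the class with the most genes tested. Of 320, 27 were lower and 4 higher over 6 samples (7 and 5 with summed counts), with a median of -0.18 that turned to 0.10 with summed counts. Without WT b 103 (32.2%) were lower and 28 (8.75%) higher, with a median of -0.13 that turned to 0.03. With summed counts 58 were lower and 58 higher, beside 1437 lower and 4981 higher of all 13098 genes. The median of all genes with that scaling was 0.32 over 6 samples and 0.19 without WT b. Zfp423, a partner of Smad and retinoic acid factors, had 139.6, 138 and 136 CPM in WT against 77.4, 76.3 and 81.2 CPM in the deletion. The groups were each within 5 CPM and did not overlap, with a difference of -0.82 ± 0.09 (adjusted p = 0.0137; -0.81 ± 0.06 without WT b). Zfp600 had -0.97 ± 0.12 (adjusted p = 0.0175), Zfp428 -0.74 ± 0.09 (adjusted p = 0.0173) and Zfp980 -0.93 ± 0.12 (adjusted p = 0.0188). The rises included Zfp516, at 1.19 ± 0.13 (adjusted p = 0.0137), and Zfp521, at 1.32 ± 0.17 (adjusted p = 0.0188). Of 85 genes of cytosolic ribosomal proteins 1 was higher and 1 lower over 6 samples, and 33 (38.8%) were higher and 16 (18.8%) lower without WT b. Of 76 nuclear genes of the respiratory chain 6 were lower and 1 higher over 6 samples, with a median of 0.11. Without WT b 22 (28.9%) were lower and 18 (23.7%) higher (9 lower and 33 higher with summed counts), against 22.0% and 20.7% of all genes. The median without WT b was -0.01 and turned to 0.16 with summed counts. Uqcrh, a hinge subunit of complex III, had -0.73 ± 0.12 (adjusted p = 0.0279). Of 37 proteasome genes 1 was lower over 6 samples, and 15 (40.5%) were lower and 4 higher without WT b (13 and 10 with summed counts), with a median of -0.07 that turned to 0.20 over 6 samples and 0.09 without WT b with summed counts. Among 55 small nucleolar and small nuclear RNA genes 1 was lower over 6 samples, and 12 were lower and 4 higher without WT b (8 and 4 with summed counts), with a median of -0.71 in WT b against WT a and c. The medians of the chromosomes other than Y ran from -0.10 on X to 0.14 on 19 over 6 samples and from -0.07 on X to 0.09 on 7 without WT b.

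Because Hmga proteins bind AT-rich DNA, genes were divided into quintiles by the AT content of the gene body, of 2577 or 2578 genes each. Median log2 fold changes went down with AT content, from 0.28 in the quintile with the least AT through 0.18, 0.05 and -0.06 to -0.20 in the quintile with the most. Without WT b they went from 0.20 to -0.14. In the quintile with the least AT, 820 genes (31.8%) were higher and 263 (10.2%) lower without WT b, and in the quintile with the most 213 (8.26%) were higher and 1005 (39.0%) lower. The difference between the outer quintiles was -0.48 over 6 samples, with the AT content of exons as with that of the gene body. By sample, the median of the quintile with the most AT minus that of the quintile with the least, each relative to the mean of the gene, was 0.06, 0.49 and 0.12 in WT (a to c) against -0.24, -0.20 and -0.25 in the deletion. The groups did not overlap, and WT b differed from WT a and c by more than these did from the deletion samples. The median log2 difference of WT b from WT a and c ran from -0.24 in the quintile with the least AT to 0.15 in the quintile with the most, between libraries of the same line. AT content moves with other properties of genes. Over quintiles of the mean level the median log2 fold change went from 0.34 in the lowest to -0.27 in the highest, and over quintiles of exonic length from 0.16 in the shortest to -0.06 in the longest. Within each quintile of the level, the difference between the outer quintiles of AT content was -0.57 to -0.29 over 6 samples. Without WT b it was -0.46 to -0.20. Within each quintile of length it was -0.55 to -0.39 over 6 samples and -0.37 to -0.32 without WT b. No p is given here, since genes cannot stand for replicates. Whether GC-dependent recovery in library preparation set part of these values was not tested.

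**Figure D4:**
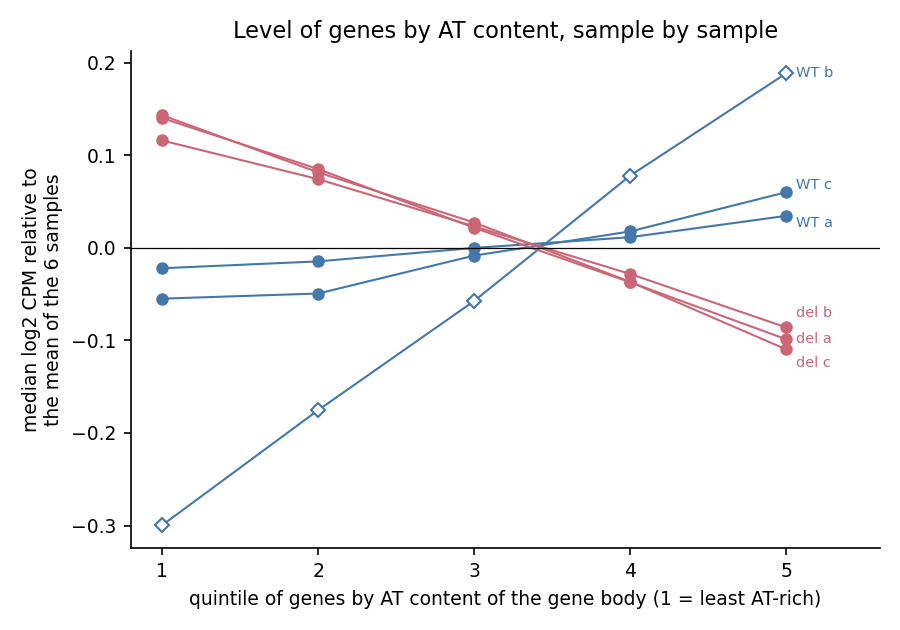
Median log2 CPM relative to the mean of the 6 samples (vertical axis) in quintiles of genes by AT content of the gene body, from the least AT-rich (1) to the most (5), with 1 line per sample, WT in blue with WT b as open diamonds and the deletion in red. WT b rises from -0.30 to 0.19, WT a and c rise from -0.02 and -0.05 to 0.03 and 0.06, and the deletion samples fall from 0.12 to 0.14 down to -0.11 to -0.09.

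A different line of the series carries a Cas9-made shift in the reading frame of Hmga1, with 2 samples of that frameshift KO and 3 WT samples of its own experiment. No sample is shared between the comparisons. The frameshift values below came from the joint fit of all 15 samples, however. Their standard errors and adjusted p-values thus rest on a spread estimated over the deletion experiment too, WT b included. In the frameshift line Hmga1 RNA had a log2 fold change of -1.30 ± 0.17. Over 13079 genes measured in both, the Pearson correlation between the log2 fold changes was 0.258, and 0.328 without WT b, given as a description over genes. Of the 586 genes higher in the deletion line, 455 (77.6%) had a value above 0 in the frameshift line, and of the 494 lower ones 96 (19.4%) did, against 46.6% of all genes. Of the 586, 9 were themselves higher in the frameshift line at an adjusted p under 0.05, and of the 494, 13 were lower there and 8 higher. Over all 13079 genes, 77 were higher and 30 lower in the frameshift line at that threshold. Bmp7 had 1.27 ± 0.43 in the frameshift line (adjusted p = 0.254), Bhlhe40 0.82 ± 0.39 (adjusted p = 0.438), Gbx2 -1.73 ± 0.42 (adjusted p = 0.0867) and Cdkn1c -1.29 ± 0.29 (adjusted p = 0.0677). These pointed the same way as in the deletion line without passing 0.05. Bnip3 was higher in both lines, at 1.81 ± 0.19 in the frameshift line (adjusted p = 0.00201). Uty was lower in both, at -4.33 ± 0.30 (adjusted p = 4.42e-05).

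The difference between the effects of the lines was tested as an interaction in a joint fit of all 15 samples. Of 13671 genes 13 passed an adjusted p of 0.01 with a difference of at least 1, which is 0.0951%, 1 with the higher effect in the deletion line and 12 with the lower. Hmga1 was among the 12, with a difference of -3.58 ± 0.22 (adjusted p = 1.98e-05). Eif2s3y was the 1 with the higher effect, and its frameshift log2 fold change was -5.10 ± 0.32, a difference of 3.63 ± 0.37 (adjusted p = 0.00257). Among the others were 3 copies of Zscan4. Zscan4f was at 24.8 and 9.58 CPM in frameshift KO a and b and 0.696, 1.71 and 0.996 CPM in the WT samples of that experiment. Its log2 fold change was thus 3.99 ± 0.51 in the frameshift line and -0.95 ± 0.16 in the deletion line, a difference of -4.96 ± 0.62 (adjusted p = 0.00649). All 10 tested 2-cell-like genes were higher in the frameshift line at an adjusted p under 0.05, and none was in the deletion line. Tuba3a and Tex19.1 also differed, by -2.42 ± 0.26 and -1.55 ± 0.21 (adjusted p = 0.00387 and 0.00996). The amino acid response genes had 5 of 20 higher in the deletion line and none in the frameshift line, whose median was 0.12, and none of the 20 passed the test of the difference. Calls were rarer in the frameshift line, with 77 of 13079 genes higher there, against 586 of 13098 in the deletion line. Over quintiles of AT content the median log2 fold change of the frameshift line went from -0.02 to -0.07.

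**Figure D5:**
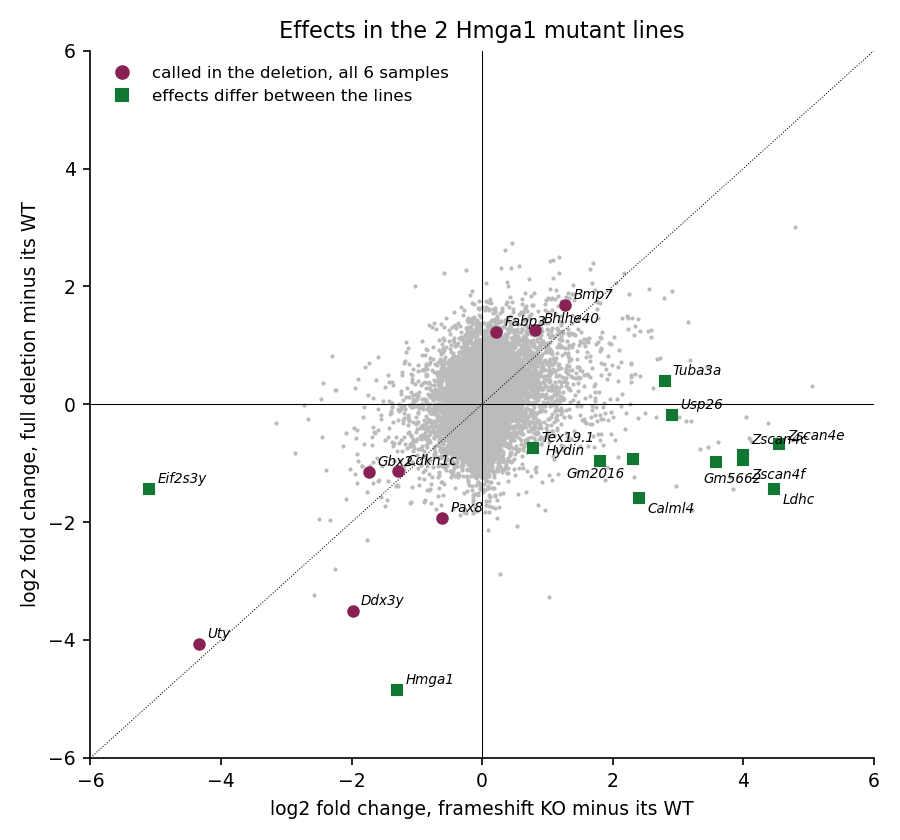
Log2 fold change of each gene in the full deletion over 6 samples (vertical axis) against that in the frameshift KO (horizontal axis), each against its own WT, with the line of equal values. Purple points were called in the deletion and green squares passed the test of the difference, most of them near or below 0 in the deletion and above 0 in the frameshift KO.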

How the data were processed

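The authors trimmed 3 bases from the reads (50 bases, single end), aligned them with QuasR and bowtie to mm9, kept 1 random alignment of reads that fit several places, and deposited raw counts per known gene, taken over its exons from reads of matching strand. The values are whole numbers without normalization. Groups were taken from the sample labels. A mean count of 10 or more over the 6 samples was required. TMM scaling and the quasi-likelihood test came from edgeR 4.0.16 (R 4.3.3), with no batch term, and p-values were adjusted by Benjamini-Hochberg across every tested gene. CPM used TMM-scaled library sizes, and per-kilobase levels used the deposited exonic length. Depth was 14832310 to 21708492 counts per sample, and genes near the minimum count are the least precise. The joint fit used all 15 samples, with the batch letter as a term within the frameshift experiment. Positions and AT content came from the NCBIM37 genome and annotation, in which 97.3% of symbols were found. The fits were also run on simulated counts. No simulated library stood apart as WT b did, so these runs do not bear on its effect.

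Alternatives tried were scaling by DESeq2 size factors or by summed counts, no filter or a mean count of at least 50, DESeq2 1.42.0, limma-trend (limma 3.58.1), a replicate block, other thresholds and leaving out each sample. Their combinations with the omission of WT b, and leaving out single samples of the joint fit, were chosen after seeing the data. Named genes are those called over 6 samples, the 10 largest rises and falls without overlap between groups in each fit, up to 6 members of each list with the lowest adjusted p and those of highest level, the Hmg family and genes within 250 kb of Hmga1. Id1, Lifr, Nr0b1, Ldhc, Hydin, Calml4, Usp26, Tuba3a, Gm2016 and Gm5662 were chosen after their values were seen. The members and the 57 gene lists were chosen with earlier results of these data known. The values of 1 gene are not reported here. Other deposited tables of the series were not used here.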

Additional observations from a re-analysis of the deposited data

Results flagged for a closer look

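The genes below stand here because the test of the difference between the effect of the full deletion and that of the frameshift KO passed an adjusted p of 0.01 with a difference of at least 1 (quasi-likelihood test of edgeR, adjusted by Benjamini-Hochberg, joint fit of 15 samples). Differences are the deletion effect minus the frameshift effect on the log2 scale. They were -5.25 for Zscan4e, -4.96 for Zscan4f and -4.87 for Zscan4c, which mark 2-cell-like cells and share near-identical copies. Among genes of testis or cilia, Ldhc, a lactate dehydrogenase subunit, had -5.94, Hydin, a gene of ciliary motility, had -2.79, Usp26, an X-linked ubiquitin protease gene, had -3.12, Tuba3a had -2.42 and Tex19.1 had -1.55. The predicted genes Gm5662 and Gm2016 had -4.58 and -3.26, and Calml4, a calmodulin-like gene, had -4.03. Hmga1 itself had -3.58, and Eif2s3y had 3.63. Ldhc was at 1.80, 1.35 and 1.83 CPM in WT against 0.544, 0.734 and 0.545 CPM in the deletion. All deletion samples were below WT, while in the other experiment Ldhc was at 1.01 and 1.37 CPM in frameshift KO a and b and 0.0633, 0 and 0.0830 CPM in the WT samples of that experiment. Calml4 was at 12.1, 26.3 and 13.4 CPM in WT against 4.90, 6.39 and 5.77 CPM in the deletion. WT b was the highest, and all 3 deletion samples were below WT. Usp26 had a log2 difference of -0.19 ± 0.22 in the deletion line (adjusted p = 0.556), and its groups overlapped. Without any 1 of the 3 deletion samples 1 of the 13 was called, and without the add-backs 1 was. Groups of 3 samples were not searched for outlying samples.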

How the results depend on the processing

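The number of genes called, 9, became 3 with summed counts, 31 without a filter on low counts, 463 with DESeq2's Wald test and 363 at an adjusted p under 0.05. Leaving out 1 sample at a time gave from 1 (without any deletion sample) to 356 (without WT b). Without WT b it was 292 with DESeq2's Wald test, 356 with limma-trend, 355 with DESeq2 size factors and 545 with summed counts. Genes higher at an adjusted p under 0.05, 586, became 1396 with DESeq2's Wald test. They ranged from 0 to 2709 with 1 sample left out, and the 0, without any deletion sample or WT c, stood beside 1530 to 2191 higher genes at an unadjusted p under 0.05 in edgeR. Without WT b they were 1996 with DESeq2's Wald test, 2735 with limma-trend, 2559 with DESeq2 size factors and 4981 with summed counts. Genes lower, 494, became 120 with summed counts and 1836 with DESeq2's Wald test, and ranged from 3 to 2881 with 1 sample left out. Without WT b they were 2652, 2872, 3009 and 1437 in the same order. Where a sample is left out the remaining 2 of its group carry the spread. The cause of these changes was not tested.

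Whether the letters a, b and c pair the samples could not be settled, since deviations in WT were taken from a mean that includes WT b. The correlations of the deviations of WT and deletion samples of the same letter were 0.08, 0.09 and -0.06. Those of different letters ran from -0.10 to 0.10. With the letter as a replicate block, 4 genes were called, 211 were higher and 185 lower, and without WT b 407, 2690 and 2816. Of the 9 called genes 3 were called with the block over 6 samples and 9 without WT b.

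Genes whose effect differed from the frameshift KO, 13, became 1 without the add-backs, 41 at an adjusted p under 0.05, and from 1 to 40 with 1 sample left out, the 40 without WT b. The difference between outer quintiles of AT content, -0.48, kept its sign under every alternative run. It ran from -0.57 to -0.35 with 1 sample left out, the -0.35 without WT b. The pooled SD of the sample values within groups was 0.17. That SD includes WT b, at 0.49 against 0.06 and 0.12 in WT a and c, so it cannot serve to judge these changes.

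Of 2656 values of 148 named genes under these alternatives, 1885 kept direction and side of the threshold, 567 kept direction and no longer passed, 181 newly passed and 23 changed sign. With summed counts the log2 differences turned positive for Eif2s3x (0.011), Id1 (0.16), Klf4 (0.019), Lifr (0.25), Pou5f1 (0.052), Sox2 (0.033, and 0.13 without WT b), Stat3 (0.0039) and Usp26 (0.12, and 0.17 without WT b). Leaving out 1 sample at a time, the differences ran from -0.34 to 0.094 for Id1, from -0.16 to 0.10 for Lifr and from -0.31 to 0.012 for Usp26. Id1 was 0.0075 with limma-trend, Usp26 was 0.0011 with DESeq2's Wald test and 0.0078 with limma-trend without WT b, and Lifr was 0.018 at a mean count of at least 50, 0.017 with limma-trend and 0.017 with the replicate block.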

Other observations

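Some gene groups are not described above, and their counts without WT b stand beside 20.7% of all tested genes higher and 22.0% lower. Of 14 interferon response genes, 2 were higher and 1 was lower over 6 samples, and 6 were higher and 2 lower without WT b. Ifitm1, a membrane protein of early embryonic cells, had 36.2, 26.8 and 34.4 CPM in WT against 51.2, 52.3 and 51.0 CPM in the deletion. All 3 deletion samples were above WT, with a log2 difference of 0.66 ± 0.13 (adjusted p = 0.0337 by edgeR's quasi-likelihood test). Ddx58, which encodes the RNA sensor Rig-I, had 49.8, 55.9 and 53.7 CPM in WT against 30.2, 32.7 and 28.3 CPM in the deletion. It was below WT in all 3 deletion samples, with a log2 difference of -0.80 ± 0.10 (adjusted p = 0.0188 by the same test). Of 16 genes of adhesion and epithelial-mesenchymal transition, Vim, the intermediate filament of mesenchymal cells, was the 1 that passed over 6 samples, at a log2 difference of -0.95 ± 0.11 (adjusted p = 0.0171), and without WT b 4 were higher and 3 lower (7 and 1 with summed counts). Of 14 immediate early genes, Ier3 was higher and Myc lower over 6 samples, and 6 were higher and 3 lower without WT b. Of 4 tested Hox genes 1 was higher over 6 samples and 2 without WT b. Of 20 aminoacyl-tRNA synthetase genes, 3 were higher and 4 lower without WT b (12 higher and 1 lower with summed counts).

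Of 9 tested genes on a longer list of 16 feeder fibroblast genes, Fbln2, an extracellular matrix protein, was higher over 6 samples, with 1.71, 1.84 and 1.49 CPM in WT against 3.93, 3.58 and 2.91 CPM in the deletion. The log2 difference was 1.05 ± 0.21 (adjusted p = 0.0356), and 4 of the 9 were higher and none lower without WT b, by edgeR's quasi-likelihood test. The summed level of the list was 22.3 to 25.5 CPM in WT and 36.0 to 37.5 CPM in the deletion, and its part in the other results was not tested.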
